A study of Mus musculus with 12 samples.

Results

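Mouse bone marrow-derived macrophages that had been given melanoma corpses overexpressing stanniocalcin 1 (STC1) were compared with macrophages cultured alone. By their labels, 8 of the 12 libraries of the series belong to this comparison, 4 of macrophages with STC1-overexpressing (STC1OE) corpses and 4 of macrophages alone. The other 4 libraries are of macrophages given control corpses and are used here only to show where STC1OE corpses differed from control ones. In all groups, bone marrow from C57BL/6 mice had been grown with macrophage colony-stimulating factor (M-CSF) at 20 ng/ml and collected on day 7. The corpses came from B16-F10 cells, a melanoma line of the same strain, with STC1 overexpression or as controls, and were added at a ratio of 1 to 5. The labels do not say whether corpses or macrophages were in excess, nor how the tumor cells were killed. After 20 h of culture unbound corpses were washed off and RNA was taken for mRNA libraries. Macrophages alone received no corpses. The design text speaks of 4 independent experiments, but no label ties a replicate number to an experiment, and the vector and clone of the overexpressing line are not stated in the sources used here.

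Macrophages clear dying cells by efferocytosis. Receptors and bridging proteins bind phosphatidylserine and other signals on the corpse, the actin cytoskeleton folds around it, and the phagosome fuses with lysosomes, whose acid hydrolases take the cargo apart. The digested corpse leaves the macrophage with a load of cholesterol, fatty acids, amino acids, nucleic acids and iron that it stores, exports, burns or uses to build. Sterol sensing shuts off the transcription factor SREBP2, and oxysterols turn on the liver X receptors. STC1 is a secreted glycoprotein known from calcium and phosphate control, and in tumor cells it has been described as holding back calreticulin, an ER chaperone that marks a dying cell for uptake when it reaches the cell surface.

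The 8 libraries held between 28488441 and 35589437 counts assigned to genes, so 3 counts, the limit that a count of 0 allows, correspond to 0.0843 to 0.105 CPM, counts scaled to the same total in every library. Between 41.0% and 46.6% of each library's reads were not assigned to a gene. Values below are CPM after TMM scaling by edgeR, n = 4 libraries a group, with SD. CPM compares libraries for a gene and not genes with each other, since it is not divided by gene length. Within both groups libraries 1 and 2 stood apart from libraries 3 and 4: the chi-square per degree of freedom over genes was 3.12 and 2.88 within the pairs of macrophages alone and 6.00 to 13.5 across them, and 4.26 and 2.81 against 11.2 to 17.1 with STC1OE corpses. No label says what the pairs are. With control corpses libraries 3 and 4 were close (2.73), but libraries 1 and 2 were not (7.03, against 5.46 to 9.11 across). Against macrophages alone 2255 genes were called higher and 2395 lower in pair 1 and 2, and 3288 and 3296 in pair 3 and 4, and pair values stand beside the results that differ most between them. The macrophage genes Adgre1 (F4/80, 1223 ± 17.4 CPM alone), Csf1r (1942 ± 28.3) and Lyz2 (11192 ± 447) were high in macrophages alone. Melanocyte transcripts moved with the corpses. Summed over 16 melanocyte markers other than Gpnmb and Mitf, which macrophages express, they came to 7.29 to 8.05 CPM in macrophages alone, 11.9 to 13.5 CPM with STC1OE corpses and 17.9 to 22.4 CPM with control corpses, and the part of RNA carried in by corpses in the results below was not tested. In such bulk libraries fewer cells of a type and less RNA per cell cannot be told apart.

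Stc1 itself was close to absent from these macrophages. The 4 libraries of macrophages alone held 0, 2, 0 and 3 counts and those with STC1OE corpses 2, 3, 7 and 5 counts, or 0.0391 ± 0.0458 and 0.130 ± 0.0700 CPM. The groups overlapped, and the difference did not pass an exact two-sided permutation test (p = 0.0857, where 4 against 4 cannot go below 0.0286). Of the 8 libraries, 6 held 3 counts or fewer. The overexpression in the corpses was therefore not checked by these libraries, which were made from the macrophage cultures.

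Of 16406 genes tested, 7186 (43.8%) differed, 3510 (21.4%) of them higher and 3676 (22.4%) lower, with STC1OE corpses than in macrophages alone at an adjusted p under 0.05 (edgeR quasi-likelihood test with Benjamini-Hochberg adjustment over all genes). List counts against macrophages alone, given below, are to be read beside the shares of 21.4% higher and 22.4% lower. Most changes were small, with a median of 1.22-fold over the called genes. At least 1.5-fold changes were called for 480 higher (2.93%) and 927 lower genes (5.65%), 124 and 297 genes reached 2-fold, and 11 and 26 reached 4-fold. The median log2 fold change over all genes tested was -0.03, and the libraries of the groups did not overlap for 6555 genes (40.0%). In the plot of level against change, falls outnumber rises past 1.5-fold, while 5 genes rose and 4 fell by 8-fold or more.

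**Figure D1:**
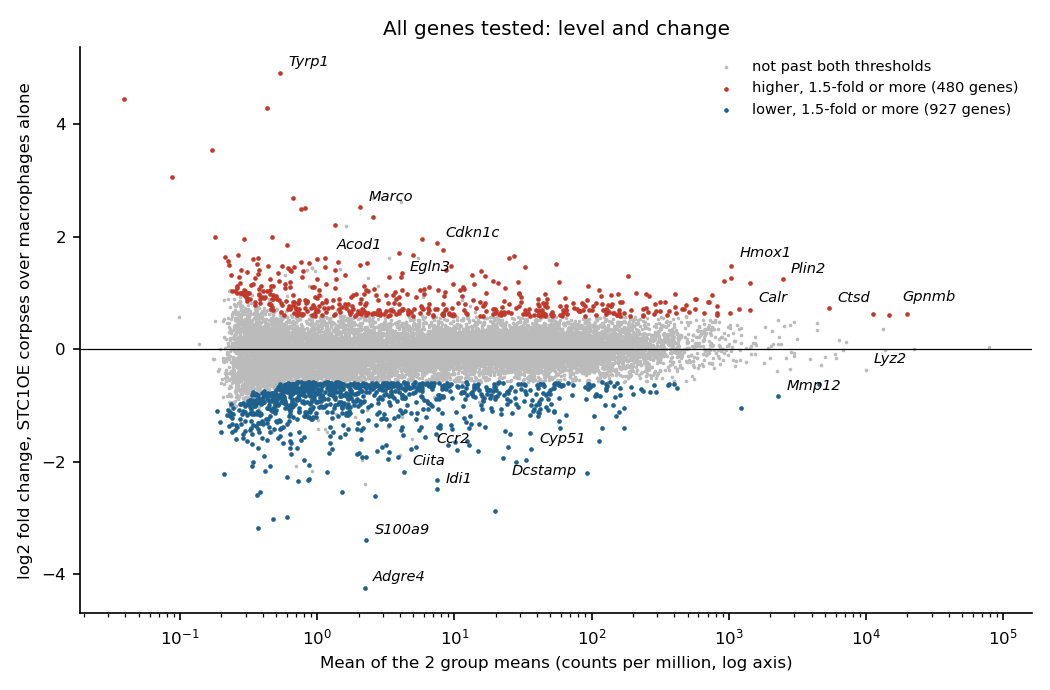
Change of all 16406 genes tested, as the log2 fold change of STC1OE corpses over macrophages alone, against the mean of the 2 group means in CPM on a log axis. Red and blue points are the 480 and 927 genes called higher and lower at 1.5-fold or more. Adgre4, S100a9, Idi1 and Ciita lie among the lowest points, and Hmox1, Plin2 and Calr lie above 0 at high levels.

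The largest rises in CPM were in lysosome, lipid storage, iron storage and chaperone transcripts. Gpnmb, a lysosomal glycoprotein, rose from 15610.0 ± 34.6 to 24064 ± 719.8 CPM, the largest rise in CPM of any gene. Next came Psap, the precursor of the saposins that help degrade sphingolipids (11620.0 ± 181 to 17637 ± 292 CPM), and Fth1, the ferritin heavy chain (8836 ± 404 to 13532 ± 1173 CPM). Ctsb, Ctsd, Plin2, the galectin gene Lgals3 and Calr completed the 8 largest rises. The largest fall in CPM was in Lyz2, the macrophage lysozyme, from 11192 ± 447 to 8683 ± 619 CPM. Ahnak, Mmp12, Malat1, Anxa1, Ctss, Lpl and Tmsb4x completed the 8 largest falls.

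Genes of cholesterol synthesis and uptake fell, with the lowest median among the lists with over 10 members tested. Of 26 SREBP targets tested, 22 fell and 1 rose, 19 fell by at least 1.5-fold, and the median log2 fold change was -1.04. Idi1, which isomerizes the isoprenoid building block, was at 14, 12.2, 12.2 and 12.4 CPM in the 4 libraries alone and at 1.73, 2.17, 2.58 and 2.51 CPM with STC1OE corpses. It was 5.64-fold lower (log2 -2.49 ± 0.11, SE; adjusted p = 3.79e-18), and the groups lay far apart. Cyp51, the lanosterol demethylase, fell from 58.5, 58.3, 52.7 and 55.0 CPM to 16.5, 16.4, 16.4 and 16.3 CPM. Stard4, a carrier of cholesterol between membranes, fell from 39.5, 36.8, 37.2 and 36.8 CPM to 11.5, 10.7, 11.6 and 11.3 CPM, 3.34-fold. For all 3 genes each library with corpses was below every library alone. Falls of 2-fold or more were also measured for Fdps (log2 -2.06), Fdft1 (-1.32), Insig1 (-1.29), Hsd17b7 (-1.23), Hmgcs1 (-1.14), Srebf2, the regulator itself (-1.12), Msmo1 (-1.12), Sc5d (-1.06) and Sqle (-1.02). Ebp was the 1 gene that rose (0.19), and Dhcr7 (0.04) and Ggps1 (-0.07) were among those not called. The list's median was -1.06 in library pair 1 and 2 and -1.02 in pair 3 and 4.

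The sterol element TCACNCCAC, the sequence SREBP proteins bind, was sought on both strands of RefSeq promoters (GRCm38.p6, 250 bases before to 50 after the start), which matched 10355 of the genes tested. It was present in 1 of 18 promoters of the list (5.56%) against 1.42% of all, and the CCAAT box in 17 of 18 (94.4%) against 42.5%. The promoter with the sterol element was that of Hmgcs1, whose enzyme makes HMG-CoA, which fell from 56.9 ± 3.44 to 25.7 ± 1.18 CPM. It is shown because it carries the motif in the sterol list; the stretch lies at chr13:119690204-119690303 on the + strand, with the match in capitals, 137 bases before the start.
Hmgcs1: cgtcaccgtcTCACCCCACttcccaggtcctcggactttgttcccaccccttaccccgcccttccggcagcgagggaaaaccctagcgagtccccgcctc
Such a match is a description of the letters and not a measured binding site.

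Fatty acid synthesis did not follow as a block: 8 of 21 genes rose and 10 fell. The fatty acid desaturase Fads2, at 4.21, 4.76, 4.09 and 3.93 CPM alone, was at 1.30, 1.10, 1.06 and 1.33 CPM with corpses (3.53-fold lower). The acyl-CoA synthetase Acsl3 fell from 17.3 ± 0.572 to 7.03 ± 0.383 CPM. Rises were led by Scd1, the stearoyl-CoA desaturase (log2 1.08 ± 0.19), and the malic enzyme Me1 (0.98 ± 0.10), both at low levels. Fasn (log2 -0.12) and Srebf1 (-0.19) fell slightly.

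Cholesterol export and lipid storage rose. Of 17 genes of cholesterol export and liver X receptor targets 10 rose and 3 fell, with 4 and 2 past 1.5-fold. Abca1, which loads cholesterol onto apolipoprotein A-I, was at 490.4, 509.5, 534 and 502 CPM alone and 996, 1013, 971 and 994 CPM with STC1OE corpses, 1.95-fold higher, and its partner exporter Abcg1 rose from 226 ± 5.44 to 400.5 ± 20.9 CPM. The groups did not overlap for either gene. The other genes past 1.5-fold were Smpdl3a (log2 0.67) and Lpcat3 (0.63), a phospholipid-remodeling enzyme. Nr1h3, the liver X receptor alpha, rose by less (log2 0.56), and Soat1, which esterifies cholesterol, likewise (0.49). Apoe was not called (log2 -0.14 ± 0.076). Falls were measured for the ABC transporter Abca9 (52.2 ± 0.606 to 18.6 ± 0.535 CPM) and for Cyp27a1, the sterol 27-hydroxylase that makes oxysterols (log2 -1.11 ± 0.12).

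The lipid droplet coat protein gene Plin2 was one of the most abundant risers. It stood at 1437, 1480.0, 1469 and 1481 CPM alone and at 3422, 3539, 3464 and 3442 CPM with corpses, 2.36-fold higher (log2 1.24 ± 0.024; adjusted p = 7.14e-27), with no overlap. Hilpda, an inhibitor of droplet lipolysis, rose from 9.43, 9.08, 9.62 and 10.5 CPM to 25.6, 20.8, 23.5 and 25.4 CPM. Fatty acid-binding protein genes rose too: Fabp5 from 561 ± 15 to 1291 ± 39.8 CPM, Fabp3 by log2 0.98 and Fabp4 by log2 0.87. Of 22 droplet and storage genes 12 rose and 6 fell. Those that fell included Lipe, the hormone-sensitive lipase (log2 -0.71), and Lpin1 (-0.70). For fatty acid oxidation in mitochondria 13 of 20 genes rose and 1, Acadm, fell, by smaller steps (median log2 0.19). The largest was in Cpt1a, the entry enzyme, from 196, 196, 202 and 203 CPM to 305, 316, 316 and 321 CPM.

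Nuclear receptors mostly fell or were not called, with 2 of 18 higher and 8 lower. Nr4a1, an orphan receptor induced by many signals, fell from 13.5, 14.6, 14.1 and 13 CPM to 3.95, 4.31, 4.04 and 4.52 CPM, and Pparg, a fatty acid sensor, fell from 64.2 ± 2.85 to 41.5 ± 2.09 CPM. Rxra, the shared partner of these sterol and fatty acid receptors, rose (log2 0.50 ± 0.051).

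Lysosomal genes rose broadly. Of 43 acid hydrolases 28 rose and 7 fell, and of 22 lysosomal membrane and cofactor genes 17 rose and 2 fell, with medians of 0.31 and 0.38. Of these, 7 and 5 rose by at least 1.5-fold. Ctsd, the aspartic protease cathepsin D, was at 3892, 4012, 4109 and 4068 CPM alone and at 6567, 6630.0, 6710.0 and 6807 CPM with STC1OE corpses, 1.66-fold higher, and no library overlapped. The glycogen-degrading alpha-glucosidase Gaa rose from 102, 103, 108 and 106 CPM to 192, 209.7, 206 and 217 CPM. Naglu, a heparan sulfate hydrolase, rose from 115 ± 2.13 to 205 ± 8.85 CPM, and Acp5, the tartrate-resistant acid phosphatase, from 7.59 ± 1.05 to 15.9 ± 1.09 CPM. Cathepsin Z (Ctsz, log2 0.71) was also past 1.5-fold. The list had its exceptions. Ctss, cathepsin S, which trims the invariant chain of MHC class II, fell from 3166, 3077, 3211 and 3172 CPM to 2434, 2458, 2491 and 2454 CPM, and Ctsf (log2 -0.45), Ctsc (-0.29), Ids (-0.29) and Man2b1 (-0.27) also fell.

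Among membrane proteins, the peptide and histidine transporter Slc15a3 was at 197, 256, 269 and 259.8 CPM alone and 415, 417, 458 and 461 CPM with corpses. Slc11a1, a divalent metal transporter of the phagosome, rose from 515 ± 10.9 to 805 ± 13.9 CPM. Npc1, which exports cholesterol from the lysosome, rose by log2 0.60, and Lamp1 by 0.43. In the V-ATPase, the proton pump, 13 of 18 subunits rose and 1 fell. The largest rises were Atp6v0c (log2 0.58 ± 0.024) and Atp6v0d1 (0.58 ± 0.029). Of 28 genes of the TFEB family and of mTORC1 control at the lysosome 12 rose and 6 fell, with a median of 0.10. Rragd, a GTPase that ties mTORC1 to the lysosome, was 2.001-fold higher (19.2, 21.2, 19.4 and 19.5 CPM alone, 35.5, 41.0, 41.5 and 40.4 CPM with corpses), while the transcription factors Mitf (log2 -0.59 ± 0.026) and Tfeb (-0.37) fell. Of 31 autophagy and LC3-associated phagocytosis genes 7 rose and 10 fell, and the median was 0.01. The autophagy receptor Sqstm1 rose from 456, 471, 488 and 478 CPM to 649.5, 676, 681 and 694 CPM. Optn (log2 0.44) and Gabarap (0.48) rose too, and Ulk1, an initiating kinase (log2 -0.33), and the phagocyte oxidase subunit Ncf4 (-0.30) fell.

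The palindrome TCACGTGA, the CLEAR element that TFEB-family factors bind, was found in 4 of 34 hydrolase promoters (11.8%), 3 of 19 of the membrane list (15.8%) and 3 of 12 V-ATPase promoters (25.0%) against 2.14% of all promoters. The promoter of Gla, the alpha-galactosidase that degrades globotriaosylceramide, is shown as one of these. Gla rose from 182 ± 3.40 to 264 ± 5.37 CPM. The stretch is at chrX:134601126-134601225 on the - strand, with the match in capitals 195 bases before the start.
Gla: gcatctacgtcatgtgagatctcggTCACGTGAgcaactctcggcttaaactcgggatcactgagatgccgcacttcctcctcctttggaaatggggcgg
The 222 genes with this motif anywhere in the promoter window held 89 called higher and 49 called lower, and all 10355 held 2706 and 2556.

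Receptors moved in both directions. Of 22 genes of phosphatidylserine recognition and bridging 9 rose and 8 fell. Cd300lf, a lipid-binding receptor, was at 4.45, 5.10, 5.18 and 5.20 CPM alone and 14.7, 14.3, 12.9 and 13.7 CPM with corpses, 2.78-fold higher. The bridging protein Mfge8 (log2 0.84 ± 0.03), the receptor kinase Mertk (0.55 ± 0.076) and Stab2 (0.74) rose, while the receptor kinase Axl (-0.30) and the bridging protein Pros1 (-0.64) fell. Thbs1, which bridges corpses to CD36, fell from 195, 201, 229.8 and 212 CPM to 87.3, 89.6, 91.7 and 98 CPM. Anxa1, a phosphatidylserine-binding annexin, fell from 1654 ± 27.8 to 803 ± 20.9 CPM.

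Of 13 scavenger receptors 6 rose and 4 fell. Marco, a class A scavenger receptor, was barely detected alone at 0.587, 0.612, 0.614 and 0.593 CPM and reached 3.15, 2.79, 4.07 and 3.93 CPM, 5.76-fold higher. Cd5l, a secreted scavenger protein also called AIM, rose from 610.3, 604, 621 and 608 CPM to 1453, 1495, 1483 and 1455 CPM, and Cd68 from 1078 ± 20.3 to 1749 ± 132 CPM. Cd36 rose (log2 0.47), and the mannose receptor Mrc1 (-0.32) and the HDL receptor Scarb1 (-0.43) fell. The sialic acid receptor Siglec1, which interferon induces, rose from 104, 106, 106 and 106 CPM to 249.5, 257, 268 and 268 CPM. Of the other inhibitory receptors, Clec4a2 fell from 87.8, 85.0, 82.3 and 83.6 CPM to 32.9, 31.1, 32.2 and 32.3 CPM, and Sirpa, the CD47 receptor, fell slightly (log2 -0.16 ± 0.023).

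C-type lectin, chemokine and find-me receptor genes fell more often than they rose, and Toll-like receptor genes were divided. Among C-type lectins 7 of 13 fell and 3 rose, and Clec7a, the beta-glucan receptor Dectin-1, fell (log2 -0.76 ± 0.029). Clec4b1 (4.55 ± 0.377 to 1.36 ± 0.378 CPM), Clec4a1 (log2 -1.18) and Clec4a3 (-1.16) are close relatives of Clec4a2, and reads could be split between them. Of 23 Toll-like receptors and adaptors 7 rose and 7 fell, where 21.4% of all genes rose and 22.4% fell. Cd14, the lipopolysaccharide co-receptor, fell from 168, 175, 179 and 169.5 CPM to 70.8, 61.7, 65.1 and 63.9 CPM, and the DNA sensor Tlr9 (log2 -0.89) and Ly86 (-0.78) fell too. The inhibitory Fc receptor Fcgr2b was 2.17-fold lower, at 55.6 ± 4.6 CPM alone and 25.7 ± 1.80 CPM with corpses, and the activating Fcgr4 was 1.96-fold higher, at 31.1 ± 0.820 and 60.9 ± 2.08 CPM. Of 11 chemokine receptors 6 fell and 1 rose, Fpr1, at 0.172 ± 0.0342 CPM alone and 0.345 ± 0.0945 CPM with corpses, a call that did not hold when any of 5 single libraries was left out (adjusted p up to 0.105 by edgeR). Ccr2, the monocyte receptor for Ccl2, was at 23.1, 22.3, 22.9 and 24.5 CPM alone and 7.65, 5.58, 6.33 and 6.83 CPM with corpses. The groups lay well apart. Of 21 purinergic and other find-me receptors 11 fell and 1 rose. Gpr34, a lysophosphatidylserine receptor, fell from 7.98, 7.21, 8.51 and 8.39 CPM to 2.04, 2.85, 2.45 and 2.25 CPM, and the fractalkine receptor Cx3cr1 fell from 8.05 ± 0.382 to 2.97 ± 0.349 CPM.

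**Figure D2:**
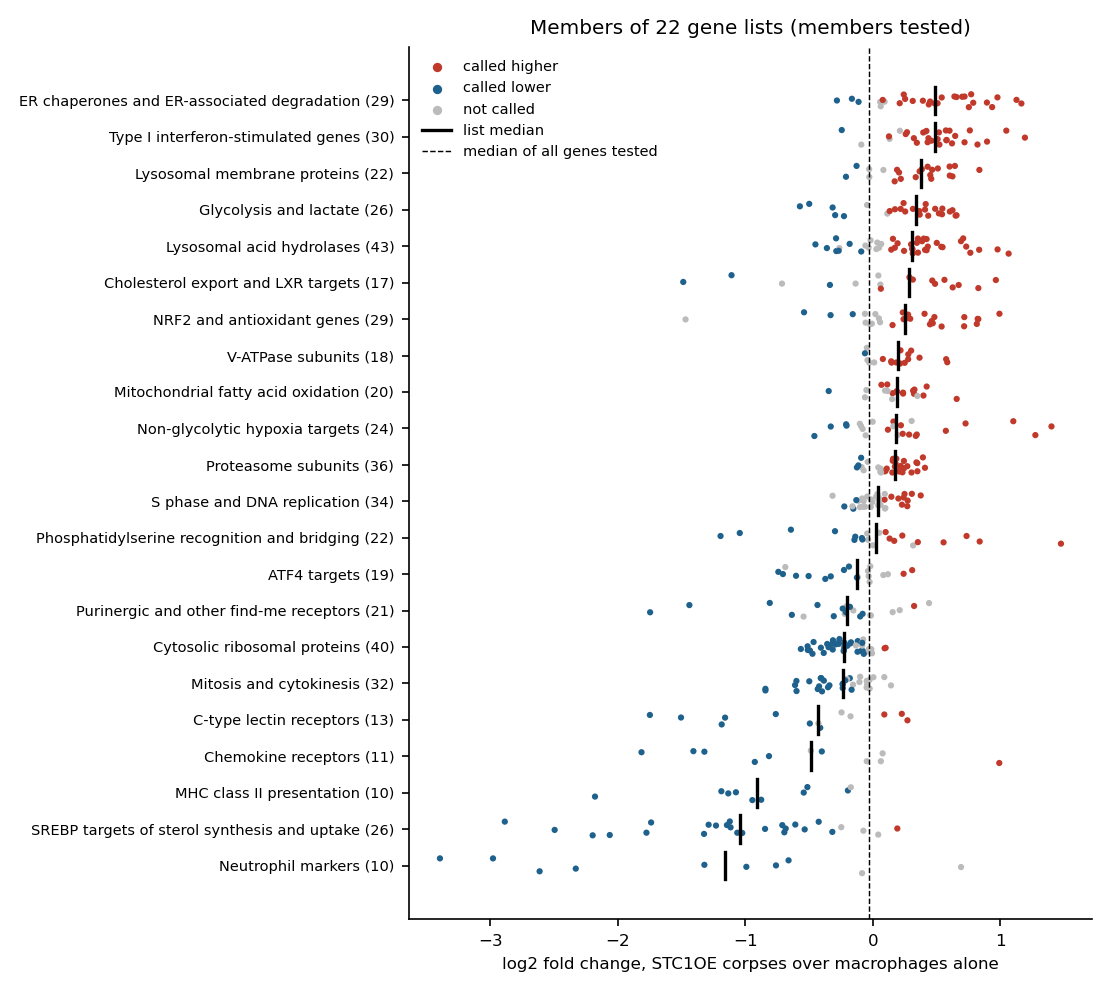
log2 fold change of each tested member of 22 gene lists, STC1OE corpses over macrophages alone, with the number tested after each name. Black bars are list medians and the dashed line is the median of all genes tested (-0.03). Neutrophil markers (median -1.16), sterol genes (-1.04) and MHC class II genes (-0.91) lie to the left and ER chaperones (0.48) and interferon-stimulated genes (0.48) to the right.

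ER chaperones rose together, while the stress arm that ATF4 drives did not. Of 29 chaperone and ER-associated degradation genes 23 rose and 3 fell, 12 by at least 1.5-fold, and the median was 0.48. Calr, the gene of calreticulin, was at 901, 879, 863 and 851 CPM alone and 1957, 1937, 1991 and 1949 CPM with STC1OE corpses, 2.24-fold higher (log2 1.17 ± 0.024; adjusted p = 3.30e-26), and the groups did not overlap. With control corpses it was at 1760.0, 1791, 1796 and 1814 CPM, between the groups. These are transcripts of the macrophage cultures, and calreticulin protein on the corpses was not measured here. Sdf2l1, a partner of the chaperone BiP, rose from 54.2, 58.0, 64.2 and 60.0 CPM to 126, 133, 129.6 and 129 CPM, and the co-chaperone Hyou1 from 270.4 ± 2.06 to 532 ± 13 CPM. The disulfide isomerases Pdia6 (log2 0.94), P4hb (0.89), Pdia4 (0.79) and Pdia3 (0.72), Hsp90b1 (0.75) and Hspa5, the gene of BiP (0.64), followed. The sensors Atf6 (log2 -0.28) and Ern1 (-0.11) fell. Of 19 ATF4 targets 2 rose and 9 fell (6 to 7 fell with any 1 library left out). Nupr1 (2.21 ± 0.218 to 1.32 ± 0.0930 CPM), the serine synthesis enzyme Phgdh (5.37 ± 0.272 to 3.29 ± 0.317 CPM) and Trib3 (3.73 ± 0.353 to 2.47 ± 0.293 CPM) fell most among the better expressed, and Atf4 itself was not called (log2 -0.04 ± 0.03).

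The ER stress element (CCAAT, then 9 bases of any kind, then CCACG, so that each match also holds a CCAAT box) was present in 9 of 24 promoters of the chaperone list (37.5%) and in 17 of all 10355 (0.164%). Of those 17 genes 11 were called higher and 1 lower, where all 10355 held 2706 and 2556. The 17 include the 9 members of the list, which rose as a list above. Of the 8 outside the list 3 were called higher and 1 lower, and the rest were not called. The 3 were Alg12 (log2 0.49 ± 0.052), an ER mannosyltransferase that builds N-glycans, Adcy3 (0.72 ± 0.043) and Hnrnpa3 (0.23 ± 0.036). The 1 lower was Pan2 (-0.43 ± 0.068). The promoters of Calr and Hsp90b1 are shown as 2 chaperone genes that rose and carry the element, which is in capitals and read on the opposite strand in both. That of Calr is at chr8:84847004-84847103 and that of Hsp90b1 at chr10:86705510-86705609, both on the - strand, with matches 162 and 107 bases before the start.
Calr: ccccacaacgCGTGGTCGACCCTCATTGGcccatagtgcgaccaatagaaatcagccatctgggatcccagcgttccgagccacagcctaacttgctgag
Hsp90b1: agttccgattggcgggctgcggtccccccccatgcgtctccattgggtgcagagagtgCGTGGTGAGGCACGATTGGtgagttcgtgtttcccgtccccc
Any effect of this element was not measured.

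Protein turnover and protein synthesis genes moved in small steps. Of 36 proteasome subunits 26 rose and 3 fell, with a median of 0.18, led by Psmd2 (log2 0.41 ± 0.024). Of 40 cytosolic ribosomal protein genes 30 fell and 2 rose, with a median of -0.22. Rpl26 was lowest, at 308, 298, 301 and 297 CPM alone and 213, 195, 205 and 201 CPM with corpses. Ribosomal protein genes share reads with processed copies elsewhere in the genome. Of 20 aminoacyl-tRNA synthetases 13 rose and 3 fell (8 higher in library pair 1 and 2, 14 in pair 3 and 4), led by Wars, which interferon induces (log2 0.63 ± 0.04). Amino acid transporters rose in 14 of 23 and fell in 3. Slc7a5, which carries large neutral amino acids, rose from 12.1 ± 0.686 to 21.5 ± 1.6 CPM, and Slc7a7, which exports cationic ones, from 21.0 ± 0.947 to 35.0 ± 0.326 CPM, while the cystine transporter Slc7a11 fell (log2 -0.50 ± 0.048). Of 16 genes of arginine and polyamine metabolism 6 rose and 3 fell, with a median of 0.05. The 3 that rose past 1.5-fold were the polyamine enzymes Srm (34.1 ± 1.48 to 57.7 ± 2.64 CPM) and Odc1 (76.7 ± 3.12 to 124 ± 7.54 CPM) and the arginine-making Ass1 (4.71 ± 0.235 to 8.23 ± 0.430 CPM).

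More heme and iron genes rose than fell, 12 against 4 of 22. Hmox1, heme oxygenase 1, was at 544, 547, 533 and 559 CPM alone, 1184, 1214, 1267 and 1256 CPM with control corpses and 1469, 1528, 1540.0 and 1574 CPM with STC1OE corpses. No 2 groups overlapped. It was 2.80-fold higher than in macrophages alone (log2 1.48 ± 0.027; adjusted p = 3.34e-27) and higher than with control corpses by log2 0.31 ± 0.026 (adjusted p = 4.22e-09). The heme transporter Slc48a1 rose from 356 ± 4.62 to 611 ± 19.5 CPM and the transferrin receptor Tfrc from 175, 167, 164 and 168 CPM to 339.7, 340.4, 327 and 323 CPM. The iron exporter Slc40a1 was not called (log2 -0.03 ± 0.048), and Lcn2, a siderophore-binding protein that neutrophils also make, fell from 1.43 ± 0.317 to 0.281 ± 0.0984 CPM.

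Antioxidant genes rose as well. Of 29 NRF2 and antioxidant genes 18 rose and 3 fell, and Nfe2l2, the gene of NRF2 itself, was among the 3 (log2 -0.33). Gstm1, a glutathione transferase, rose from 150.7, 143, 140.5 and 129 CPM to 260.0, 271, 296 and 294 CPM. Gpx3, an extracellular glutathione peroxidase, rose from 11.0 ± 1.04 to 19.6 ± 1.76 CPM and the peroxiredoxin gene Prdx6 from 61.0 ± 0.975 to 108 ± 1.88 CPM. Gsta3, a glutathione transferase outside the list, rose from 3.76, 3.88, 3.42 and 3.96 CPM to 10.4, 11.6, 14.7 and 14.1 CPM and was also above control corpses (9.03, 9.93, 8.69 and 9.50 CPM). Against control corpses 15 of the 29 were higher, where 3.33% of all genes were higher and 2.12% lower (edgeR). In library pair 1 and 2 that count was 4 and in pair 3 and 4 it was 18, and it was 10 without STC1OE library 3. The metallothionein Mt1, which binds zinc and copper, rose from 48.3 ± 2.83 to 82.2 ± 5.35 CPM.

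Glycolysis and hypoxia-response genes had the largest shares of members called against control corpses among the lists with over 20 tested. Against macrophages alone 19 of 26 glycolysis genes rose and 5 fell. Against control corpses 17 were higher, with a median log2 difference of 0.18. Hk2, a hexokinase, was at 96.2, 101, 103 and 96.1 CPM alone, 131, 134, 133 and 135 CPM with control corpses and 150.1, 152.3, 158 and 163 CPM with STC1OE corpses. For Hk2 the STC1OE libraries were the highest of the 12. Pfkl, a phosphofructokinase, was at 95.6, 101, 102 and 100.2 CPM alone, 125, 115, 127 and 123 CPM with control corpses and 157, 148.99, 157 and 151.7 CPM with STC1OE corpses. Gapdh, which shares reads with many processed copies, was at 111 ± 1.70 CPM alone, 144.9 ± 5.0004 CPM with control corpses and 173 ± 8.32 CPM with STC1OE corpses. The lactate exporter Slc16a3 differed by log2 0.54 ± 0.05 from macrophages alone and by 0.48 ± 0.05 from control corpses. Among the genes that fell against macrophages alone were Eno2 (log2 -0.57), Pfkfb4 (-0.50), Pfkp (-0.32), Pdk1 (-0.30) and Aldoc (-0.23).

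Of 24 other hypoxia targets 12 rose and 4 fell against macrophages alone, and 15 were higher than with control corpses (median 0.23). Egln3, an oxygen-sensing prolyl hydroxylase, was at 2.42, 2.21, 1.90 and 3.02 CPM alone, 2.94, 2.60, 2.47 and 2.64 CPM with control corpses and 5.46, 6.13, 5.60 and 5.999 CPM with STC1OE corpses. Libraries alone and with control corpses overlapped, and those with STC1OE corpses stood above both, by log2 1.27 ± 0.12 and 1.12 ± 0.11 (adjusted p = 1.71e-07 against control corpses). Ak4, an adenylate kinase, was at 7.67, 9.08, 8.57 and 8.31 CPM alone, 8.81, 6.14, 8.60 and 8.35 CPM with control corpses and 14.4, 11.9, 11.8 and 11.9 CPM with STC1OE corpses. Bnip3, a mitophagy receptor, was at 5.94, 6.16, 6.05 and 6.58 CPM alone, 6.49, 5.38, 5.10 and 5.69 CPM with control corpses and 8.52, 7.33, 8.28 and 7.33 CPM with STC1OE corpses. Epas1, the gene of HIF-2 alpha, was higher than in macrophages alone (5.53, 4.39, 4.56 and 4.75 CPM alone, 11.2, 13, 13.2 and 13.3 CPM with corpses) and higher than with control corpses by log2 0.32 ± 0.071 (adjusted p = 0.0052). Hif1a rose slightly (log2 0.16 ± 0.031), and Vegfa was not called (-0.08 ± 0.049).

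These differences from control corpses depended on the library pair for their count more than for their size. In pair 1 and 2 alone 6 glycolysis and 2 other hypoxia genes were called higher than with control corpses, with list medians of 0.20 and 0.20. In pair 3 and 4 alone 16 and 17 were called, with medians of 0.17 and 0.25. With any 1 library left out, 17 glycolysis genes and 12 to 15 of the hypoxia genes were called. The plot of list medians by library shows the 4 STC1OE libraries above the 4 control ones for both lists. Melanocyte transcripts were lower with STC1OE than with control corpses, and their part was not tested.

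The core hypoxia element ACGTG was present in 16 of 18 promoters of the hypoxia list (88.9%) and in 15 of 25 of the glycolysis list (60.0%) against 28.8% of all promoters. This motif is contained in the CLEAR palindrome above, so the 2 searches share matches. The promoter of Egln3 is shown because this gene had the largest difference between the corpse types among hypoxia targets. It is at chr12:54204014-54204113 on the - strand, with the match in capitals 229 bases before the start.
Egln3: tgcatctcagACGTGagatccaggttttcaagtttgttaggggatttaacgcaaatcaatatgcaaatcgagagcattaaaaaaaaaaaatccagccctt

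**Figure D3:**
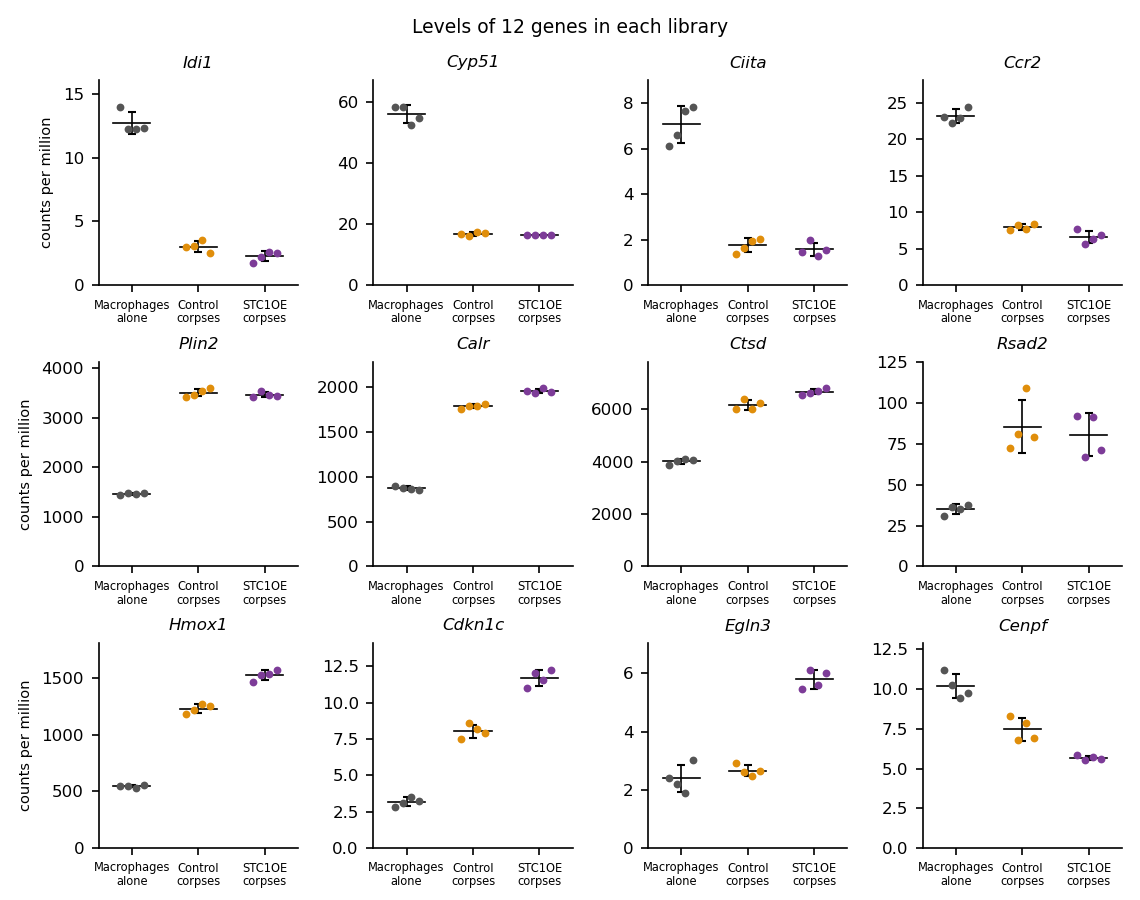
CPM of 12 genes in each library, 4 per group on linear axes from 0, with the mean and SD. Idi1, Cyp51, Ciita and Ccr2 were low and Plin2, Calr, Ctsd and Rsad2 high with both kinds of corpse. For Hmox1, Cdkn1c and Egln3 the STC1OE libraries were above all control libraries, and for Cenpf below them.

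**Figure D4:**
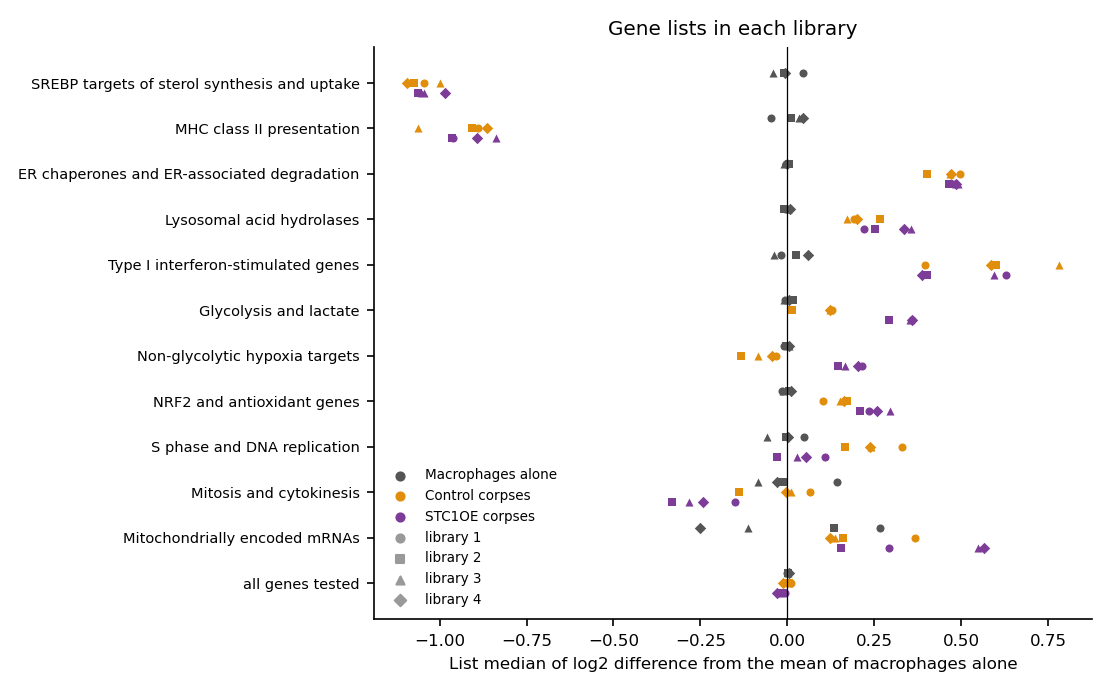
Median over each list of the log2 difference of a library from the mean of macrophages alone, for 11 lists and all genes tested. Colors are the groups and symbols the library numbers. Glycolysis and hypoxia medians of the 4 STC1OE libraries lie right of all control libraries, and mitochondrially encoded mRNAs were highest in STC1OE libraries 3 and 4.

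Acod1, which makes itaconate from the citric acid cycle, was among the highest folds of the comparison. It was at 1.35, 2.18, 2.11 and 1.75 CPM alone, 3.26, 4.03, 4.03 and 3.997 CPM with control corpses and 5.83, 6.06, 7.12 and 5.26 CPM with STC1OE corpses. The groups lay apart, at 3.27-fold over macrophages alone and log2 0.66 ± 0.12 over control corpses (adjusted p = 5.31e-04). Pyruvate carboxylase, Pcx, which refills the cycle, rose from 1.80 ± 0.226 to 3.52 ± 0.458 CPM. Of 29 cycle genes 19 rose and 3 fell, mostly by little (median 0.12). Nuclear genes of the respiratory chain rose in 21 of 40 and fell in 1 (median 0.15), with 12 higher in library pair 1 and 2 and 21 in pair 3 and 4.

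The mRNAs encoded in mitochondria did not have a stable value. Over all libraries 6 of 12 rose, with a median of 0.44. In library pair 1 and 2 that median was 0.05, with 3 higher and 1 lower, and in pair 3 and 4 it was 0.87, with 12 higher. The share of counts from the mitochondrial genome was 4.36%, 4.00%, 3.37% and 3.19% in macrophages alone and 3.41%, 3.29%, 4.29% and 4.29% with STC1OE corpses, so the groups overlapped (exact two-sided permutation test, p = 0.714). STC1OE libraries 3 and 4 also had more reads that did not align, 17.8% and 17.5% against 14.6% and 14.4% in libraries 1 and 2. What sets these 2 libraries apart was not tested.

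Interferon-stimulated genes rose. Of 30 genes 25 rose and 1 fell, 9 by at least 1.5-fold, with a median of 0.48. Rsad2, the antiviral protein viperin, was at 31.0, 36.3, 35.4 and 37.7 CPM alone and 92.1, 67.1, 91.2 and 71.1 CPM with STC1OE corpses, and the groups did not overlap. Its neighbor in the genome and partner in the pathway, Cmpk2, rose from 28.5 ± 2.26 to 53.1 ± 8.06 CPM, and Oasl1 from 3.66 ± 0.317 to 7.57 ± 0.700 CPM. Isg15 (log2 0.62 ± 0.076), Usp18 (0.72), Irf7 (0.58), Ifit3 (0.76) and Bst2 (0.82) rose too. Ifit genes are close copies, and reads could be split among them. In library pair 1 and 2 alone 23 rose and in pair 3 and 4 alone 14 rose. The list's median difference from control corpses was -0.08, and in pair 3 and 4 alone 5 members were lower than with control corpses. Sensors of nucleic acids were among the risers, with Zbp1 at 8.94 ± 0.881 CPM alone and 14.4 ± 1.29 with corpses and Dhx58 at 26.2 ± 0.399 and 40.1 ± 2.93. The endolysosomal nuclease Pld3 rose from 647 ± 11.1 to 984 ± 43.9 CPM.

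The interferon element TTTCNNTTT was present in 16 of 22 promoters of the list (72.7%) against 9.74% of all. The promoter of Rsad2 is shown as the gene of the list with the largest rise, at chr12:26456470-26456569 on the - strand, with the match in capitals, read on the opposite strand, 107 bases before the start.
Rsad2: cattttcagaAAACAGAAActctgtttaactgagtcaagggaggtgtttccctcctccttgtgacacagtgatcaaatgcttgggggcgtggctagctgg
Over the 1009 genes with the motif, 270 were called higher and 273 lower, near the shares over all 10355 with a promoter (2706 and 2556). Genes known for type II interferon did not rise as a group: 3 of 17 rose and 6 fell, with Irf1 (log2 -0.41 ± 0.046) and Ifngr1, the receptor (-0.56 ± 0.028), among those that fell. Of 13 promoters of that list 8 (61.5%) hold the same motif.

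MHC class II genes fell and MHC class I genes rose slightly. Of 10 class II genes 9 fell, 6 by at least 1.5-fold (median -0.91). Ciita, the transactivator of the class II genes, was at 6.15, 6.6, 7.69 and 7.86 CPM alone and 1.45, 1.98, 1.29 and 1.54 CPM with STC1OE corpses, 4.53-fold lower, with no overlap. The invariant chain gene Cd74 fell from 142, 147.9, 146.1 and 140.3 CPM to 60.4, 60.1, 67.9 and 64.6 CPM and H2-Eb1 from 36.0 ± 2.34 to 16.4 ± 0.340 CPM. Of 16 class I presentation genes 10 rose and 1 fell (median 0.16), the largest rise being in the lipid-presenting Cd1d1 (log2 0.58 ± 0.1). The costimulator Cd86 fell from 5.97, 6.16, 6.43 and 6.58 CPM to 2.13, 1.75, 2.68 and 2.22 CPM and Cd83 from 35.7 ± 1.23 to 19.5 ± 1.2 CPM, while the checkpoint ligand gene Cd274 (PD-L1) rose by log2 0.38 ± 0.047 and Lgals9 by 0.93 ± 0.033.

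Chemokine ligands rose in 8 of 15 and fell in 4. Ccl2, the ligand of Ccr2, was at 26.1, 28.6, 26.8 and 31.4 CPM alone and 85.8, 70.8, 80.8 and 86.1 CPM with corpses, and Ccl7 at 17.3, 16.2, 17.9 and 18.7 CPM and 54.2, 42.0, 48.7 and 47.4 CPM. These genes and Ccl12 (log2 1.39 ± 0.26) are neighboring relatives that could share reads. Cxcl14 rose from 0.622, 1.36, 1.37 and 1.38 CPM to 3.33, 3.70, 3.54 and 3.22 CPM. Ccl9 fell (log2 -0.62 ± 0.072). Cytokine and NF-kB genes moved both ways, with 10 of 27 higher and 13 lower. Il18bp, the decoy that binds interleukin 18, rose from 12, 14.1, 14.5 and 12.3 CPM to 38.2, 42.7, 42.2 and 42.7 CPM, as Il18 itself fell (log2 -0.40 ± 0.11). Tnf rose (log2 0.70 ± 0.05), and Il10 (log2 -0.57 ± 0.11) and Casp4 (-0.81 ± 0.065), which senses cytosolic lipopolysaccharide, fell. Ptges, a prostaglandin E synthase, rose from 3.63 ± 0.169 to 6.92 ± 0.932 CPM. Hpgd, which inactivates prostaglandins, fell from 5.42, 4.97, 5.26 and 5.12 CPM to 1.33, 1.2, 1.66 and 1.18 CPM.

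Genes of matrix breakdown and repair were divided. Mmp12, the macrophage elastase, fell from 3086, 2881, 2837 and 2970.0 CPM to 1723, 1543, 1663 and 1654 CPM, and Mmp13 (log2 -0.88) and Mmp9 (-0.66) fell, while Mmp14 rose (0.59 ± 0.039). Chil3, a chitinase-like protein of alternatively activated cells, was 5.82-fold lower, at 2.57 ± 0.587 and 0.438 ± 0.124 CPM. Arg1 was not called (log2 0.18 ± 0.25), Tgfbi fell (-0.82) and Vegfb rose (0.80). Of 20 genes of alternative activation and repair 5 rose and 7 fell, with a median of -0.05 that was positive in library pair 1 and 2 (0.03) and without library 3 of macrophages alone (0.02).

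Cell division genes fell at the mitotic end. Of 32 mitosis and cytokinesis genes 20 fell against macrophages alone (median -0.24), and 12 were lower than with control corpses (-0.25). Cenpf, a kinetochore protein made late in the cycle, was at 11.2, 10.3, 9.47 and 9.78 CPM alone, 8.31, 6.81, 7.87 and 6.93 CPM with control corpses and 5.83, 5.54, 5.73 and 5.58 CPM with STC1OE corpses. Cenpa (17.5 ± 0.298 to 9.78 ± 0.596 CPM) and Nusap1 (5.16 ± 0.367 to 3.38 ± 0.0728 CPM) fell too. Of 34 replication genes 10 rose and 3 fell against macrophages alone (median 0.04), with 3 higher in library pair 1 and 2 and 11 in pair 3 and 4, and 18 were lower than with control corpses (-0.18). Over all genes the shares were 21.4% higher and 22.4% lower than alone, and 2.12% lower than with control corpses. Mcm2, a subunit of the replicative helicase, was at 65.9, 62.6, 59.8 and 63.9 CPM alone, 98.3, 82.9, 93.8 and 88.1 CPM with control corpses and 85.1, 77.1, 80.8 and 83.8 CPM with STC1OE corpses. The STC1OE libraries overlapped the control ones and Mcm2 was not called between them (log2 -0.15 ± 0.046; adjusted p = 0.0627). In library pair 3 and 4 alone, 20 replication and 13 mitosis genes were called lower than with control corpses, with medians of -0.18 and -0.25. In pair 1 and 2 the medians were -0.18 and -0.23, but edgeR called 0 of either list, with 17 and 12 lower at an unadjusted p under 0.05. Leaving out 1 library at a time gave 11 to 21 replication and 5 to 15 mitosis genes below control corpses. The fewest were 11 replication genes without STC1OE library 4 and 5 mitosis genes without STC1OE library 2. Melanocyte transcripts were likewise lower with STC1OE than with control corpses, and their part was not tested.

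Cdkn1c, the cyclin-dependent kinase inhibitor p57, had the highest fold among annotated protein-coding genes with a mean of 5 CPM or more. It was at 2.80, 3.10, 3.54 and 3.25 CPM alone, 7.51, 8.58, 8.15 and 7.91 CPM with control corpses and 11.0, 12, 11.5 and 12.3 CPM with STC1OE corpses, 3.68-fold over macrophages alone and log2 0.54 ± 0.074 over control corpses (adjusted p = 1.90e-05), with all 3 groups apart. Cdkn1b, the gene of p27, fell (log2 -0.49 ± 0.058). Ccnd2, a D-type cyclin, was at 5.08, 4.46, 4.94 and 5.002 CPM alone, 4.85, 4.95, 5.77 and 5.24 CPM with control corpses and 3.98, 3.40, 3.64 and 4.64 CPM with STC1OE corpses. Its libraries overlapped with macrophages alone. It was called lower than alone (log2 -0.31 ± 0.10; edgeR adjusted p = 0.0129), but not without STC1OE library 2 (log2 -0.24, adjusted p = 0.0731) or 3 (log2 -0.27, adjusted p = 0.0539).

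Core macrophage markers moved in both directions. Of 16 of them 5 rose and 8 fell, and their summed level went from 18679 to 19562 CPM alone to 16178 to 17284 CPM with corpses. Csf1r (log2 -0.24 ± 0.023), Adgre1 (-0.30 ± 0.024) and C1qa (-0.37 ± 0.04) fell, and Spi1, the lineage factor PU.1, was not called (-0.06 ± 0.029). Adgre4, an adhesion receptor related to F4/80, was at 3.70, 4.46, 4.30 and 4.44 CPM alone and at 0.216, 0.259, 0.199 and 0.207 CPM with STC1OE corpses, the largest fall of any called gene at 2 CPM or more in macrophages alone (18.9-fold lower). Dcstamp, needed for the fusion of macrophages, fell from 36.7, 37.7, 34.8 and 34.6 CPM to 9.997, 8.56, 9.80 and 8.95 CPM. Integrins and adhesion molecules fell in 13 of 21 and rose in 2, led by Itga1 (2.31 ± 0.294 to 1.14 ± 0.0977 CPM). Actin regulators fell in 11 of 33 and rose in 6 (2 without library 4 of macrophages alone and 11 without STC1OE library 2), with Lsp1, an actin-bundling protein of leukocytes, at 52.1 ± 1.85 CPM alone and 26.1 ± 0.223 CPM with corpses. Over all genes 22.4% fell and 21.4% rose. Early-response genes were divided, 10 of 31 up and 11 down, with Btg2 falling from 24.2 ± 0.919 to 9.26 ± 0.669 CPM and Dusp6, a phosphatase of ERK, rising from 93.8 ± 2.23 to 182 ± 2.18 CPM.

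Marker sums of several other cell types shifted. Neutrophil marker genes fell. Of 10 tested 8 were lower, with a median log2 fold change of -1.16. Over 18 markers other than Mmp8 and Csf3r the sum was 25.5 to 27.7 CPM in macrophages alone, 10.7 to 11.3 CPM with STC1OE corpses and 9.53 to 11.6 CPM with control corpses. S100a9 went from 3.70, 4.22, 4.77 and 3.98 CPM to 0.463, 0.519, 0.364 and 0.236 CPM and Ngp from 4.59, 4.69, 4.39 and 4.44 CPM to 1.11, 0.486, 0.563 and 0.768 CPM, whereas Ly6g, Retnlg and Stfa1, Stfa2 and Stfa3 were at 0 in all libraries of both groups. Ighm, the immunoglobulin heavy chain, fell from 11.8, 12.9, 13.5 and 11.9 CPM to 2.62, 2.20, 2.78 and 2.39 CPM, and the sum of B cell markers was 123 to 133 CPM alone and 122 to 135 CPM with corpses. T and NK cell markers summed to 5.48 to 6.84 CPM alone and 6.59 to 7.05 CPM with corpses, and fibroblast markers to 24.9 to 33.7 and 22.8 to 24.2 CPM. The sum of 10 dendritic cell markers was 55.4 to 60.1 CPM alone and 93.1 to 100.3 CPM with corpses. Most of it was Bst2, which is also an interferon-stimulated gene (52.5 ± 2.03 and 92.6 ± 2.93 CPM), while the dendritic cell lectin Clec9a (log2 -1.50) and the integrin Itgae (-0.49) fell. The sum of 12 erythroid and platelet markers was 131 to 138 CPM alone and 103 to 114 CPM with corpses. Most of it was the platelet chemokine Pf4 (133 ± 3.20 and 108 ± 4.19 CPM), and Hbb-bs, Hba-a2 and Car1 were at 0 in all libraries of both groups. Mast cell and basophil markers summed to 3.18 to 4.35 CPM alone and 2.27 to 2.99 CPM with corpses, and core macrophage markers to 18679 to 19562 and 16178 to 17284 CPM. The part of these shifts in the results was not tested.

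Melanocyte genes were the other shift, and here the corpses differed. Tyrp1, an enzyme of melanin synthesis, was at 0.0345, 0.0340, 0 and 0.0565 CPM alone, 4.43, 4.49, 3.14 and 4.32 CPM with control corpses and 0.987, 1.01, 0.861 and 1.33 CPM with STC1OE corpses. Dct, the dopachrome tautomerase, was at 0.0691, 0, 0 and 0.0848 CPM alone, 3.21, 3.48, 2.80 and 2.78 CPM with control corpses and 0.987, 1.07, 0.695 and 0.561 CPM with STC1OE corpses. The melanosome protein gene Pmel was at 0.138, 0.306, 0.205 and 0.311 CPM alone, 2.41, 2.90, 1.77 and 2.64 CPM with control corpses and 1.54, 1.59, 1.19 and 1.27 CPM with STC1OE corpses. With STC1OE corpses all 3 lay above macrophages alone and below control corpses in every library. The log2 differences from control corpses were -1.96 ± 0.16 for Tyrp1, -1.89 ± 0.20 for Dct and -0.79 ± 0.17 for Pmel. Tyr, the tyrosinase gene, was at 0 in all 4 libraries alone and at 0.123, 0.0324, 0.0662 and 0.0886 CPM with STC1OE corpses, near the limit that a count of 0 allows. Of 11 melanocyte genes tested 6 were lower with STC1OE than with control corpses and 1, Gpnmb, was higher. The share of RNA from corpses was not measured.

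**Figure D5:**
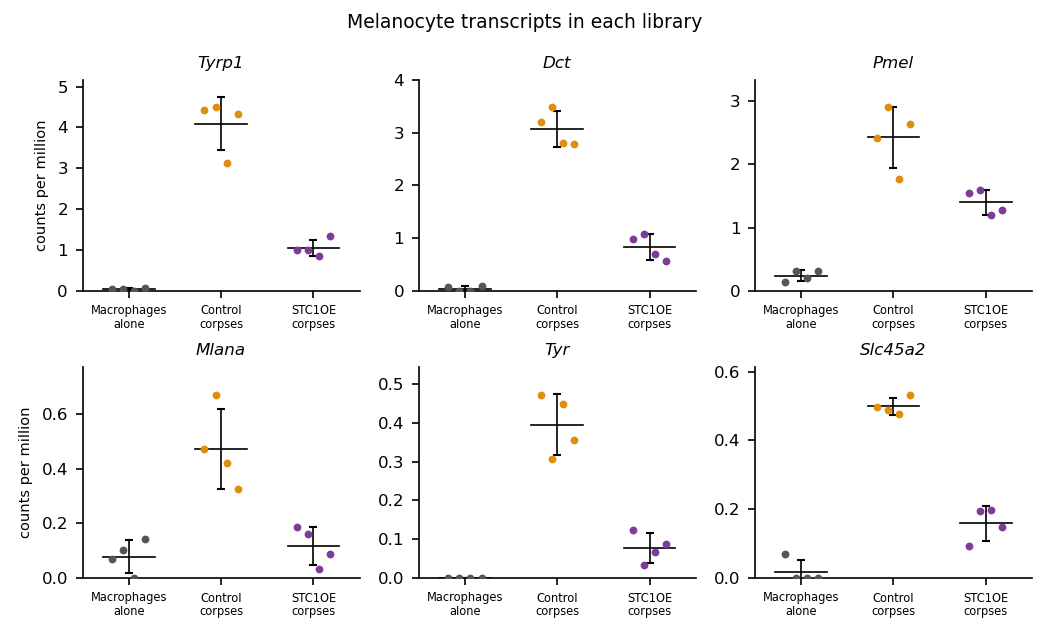
CPM of 6 melanocyte genes in each library on linear axes from 0, with the mean and SD of 4 libraries per group. Macrophages alone were at or near 0, and every STC1OE library was below every control library for Tyrp1, Dct, Pmel, Tyr and Slc45a2.

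Against control corpses, 546 genes (3.33% of 16406) were higher and 347 (2.12%) lower with STC1OE corpses, 9 (0.0549%) and 37 (0.226%) of them by 1.5-fold. Of the 480 genes that rose by 1.5-fold over macrophages alone, 79 were also above control corpses and 5 below. Of the 927 that fell, 60 were below control corpses and 2 above. Both comparisons use the same STC1OE libraries, so genes picked as high or low in them lean the same way against control corpses. These counts rest on library pair 3 and 4, in which calls came to 7.91% of the 16406 genes higher and 3.82% lower than with control corpses, against 0.165% and 0.0366% in pair 1 and 2. Without STC1OE library 3 the shares were 1.71% and 1.18%, without STC1OE library 4 they were 2.07% and 0.890%, without control library 3 they were 1.99% and 1.24%, and without control library 1 they were 2.29% and 1.13%. Lysosomal genes were among those higher with STC1OE corpses, 10 of 43 hydrolases and 11 of 22 membrane genes. In pair 3 and 4 alone 18 and 12 were called. In pair 1 and 2 alone edgeR called 0 of either list, with 9 and 10 higher at an unadjusted p under 0.05. Leaving out STC1OE library 3, or control library 1, gave 7 and 7. Values over all libraries were log2 0.19 ± 0.035 for Gaa, 0.28 ± 0.05 for Rragd and 0.26 ± 0.026 for Sqstm1. Of the 26 sterol genes 1 was called against control corpses, Idi1 (log2 -0.42 ± 0.12). Anxa1 (log2 -0.16 ± 0.026), low with both corpses, was lower with STC1OE ones. Gprc5b, an orphan receptor, was at 4.56, 4.56, 3.77 and 3.65 CPM alone, 5.97, 7.03, 5.80 and 6.51 CPM with control corpses and 7.96, 9.21, 9.47 and 8.66 CPM with STC1OE corpses. Ndc80, a kinetochore gene, was at 8.70, 7.89, 6.73 and 7.15 CPM alone, 7.88, 6.05, 6.53 and 6.28 CPM with control corpses and 5.09, 4.73, 5.33 and 4.91 CPM with STC1OE corpses.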

How the data were processed

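The deposited files hold raw read counts per gene for 12 libraries. Per the submitters' processing notes, reads were aligned with HISAT2 to mm10 (GRCm38) and counted by the authors with HTSeq. The notes also name DESeq2. Versions, annotation release and strand setting are not given in the sources used here. Rows that name no gene were left out. Genes with too few counts were dropped (filterByExpr, minimum count 10, minimum total 15), libraries were scaled by TMM, and a robust quasi-likelihood model with a mean per group was fitted to all 12 libraries (edgeR 4.0.16 in R 4.3.3; 9 residual degrees of freedom). Calls used Benjamini-Hochberg adjusted p-values under 0.05 over all genes tested. No label says that libraries of a group came from separate cultures or animals, beyond the design text's independent experiments, so p-values measure the spread between these libraries. Gene classes and positions came from GENCODE M21, matched by identifier for 54723 of 55604 genes. Alternatives were other scaling, filters, tests, libraries and DESeq2 1.42.0. The limit that a count of 0 allows covers counting error only, while SD and SE values include the spread between these libraries. The fitting code was tested on simulated data.

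The members and gene lists were chosen with earlier results of these data known. Genes were named if they were Stc1, among up to 3 called members of a list with the largest changes at 2 CPM or more, among the 12 highest and 12 lowest folds of protein-coding genes at 5 CPM or more with ranges apart, among the 8 largest rises and 8 largest falls in CPM, among the 6 highest that crossed 1 CPM in either direction, or among the 8 highest and 8 lowest differences from control corpses. Some genes that meet this rule are not reported here, and of the sterol genes Cyp51 and Stard4, next in size, are given in full. Other genes named, the list members given by log2 value and the families, neighboring genes and gene classes in the closing section were chosen after their values were seen.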

Additional observations from a re-analysis of the deposited data

Results flagged for a closer look

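Among the groups of 4 libraries behind the genes named here, 27 of 485 had 1 library set apart from the other 3 by Dixon's test at the 95% level, where chance flags about 1 in 20. Of these, 18 were library 1 of its group.

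In macrophages alone, library 1 was high for Cd36 (2619 CPM), Ctsb (11825 CPM), Stard4 (39.5 CPM), Idi1 (14 CPM), Optn (14.4 CPM) and Slc45a2 (0.0691 CPM). It was low for Tfeb (74.9 CPM), Siglec1 (104 CPM), Cd300lf (4.45 CPM) and Cxcl14 (0.622 CPM). The Slc45a2 value is under the limit that a count of 0 allows in library 1 (0.105 CPM). Library 2 of this group was high for Vegfb (18.8 CPM) and Rragd (21.2 CPM). Library 3 was high for Ctsz (927 CPM) and low for Cenpa (17.1 CPM). Library 4 was high for Cd274 (70.5 CPM) and Wars (38.7 CPM).

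With STC1OE corpses, library 1 was low for Abcg1 (369 CPM), Npc1 (411 CPM), Gla (256 CPM), Il18bp (38.2 CPM) and Epas1 (11.2 CPM) and high for Anxa1 (834 CPM), Ak4 (14.4 CPM) and Nusap1 (3.49 CPM). Library 2 was low for Odc1 (113 CPM) and Msmo1 (32.2 CPM), and library 3 was high for Axl (96.8 CPM).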

How the results depend on the processing

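Against macrophages alone, the counts of 3510 higher and 3676 lower genes were 3296 to 3774 and 3124 to 3905 under other scaling, filters, DESeq2 or a fit of the compared groups only, and 3244 to 3613 and 3176 to 3443 with 1 library left out. They were 903 and 1216 by a test against a 1.2-fold change, and 2255 and 2395 in libraries 1 and 2 alone. The 927 genes lower by 1.5-fold became 610 with the stricter low-count filter. Of the 16406 genes, 3.33% were higher and 2.12% lower with STC1OE than with control corpses. As shares of the same 16406 genes, calls came to 0.0122% and 0.0122% against a 1.2-fold change, 0.165% and 0.0366% in libraries 1 and 2, 7.91% and 3.82% in libraries 3 and 4, and 1.71% to 4.43% and 0.890% to 2.88% with 1 library left out. RLE scaling gave 4.15% and 1.93%, upper-quartile scaling 2.72% and 2.41%, and DESeq2 4.44% and 1.85%. Of 67 list medians, 13 changed sign under some alternative. Those that had been at least the spread between libraries from 0 were phosphatidylserine recognition (-0.00117, stricter filter), alternative activation and repair (0.0285 in libraries 1 and 2, and -0.0789 to 0.0210 with 1 library left out, positive without library 3 of macrophages alone), T and NK cell markers (from -0.38 over 2 genes to 0.245, stricter filter) and fibroblast markers (0.134, stricter filter, and 0.0126 in a fit of the compared groups only). The others were dendritic cell markers (from -0.12 to 0.261, stricter filter) and, near 0, the actin, autophagy, clock, eicosanoid, Fc receptor, immediate-early, pentose phosphate and Toll-like receptor lists. In libraries 1 and 2 alone 37 of the 67 lists, and in libraries 3 and 4 alone 12, had a count of genes higher or lower than alone that moved by over 1.5 times, and 55 and 46 had one against control corpses. Of single genes not called, Apoe (log2 0.00795) and Arg1 (-0.0985) changed sign in libraries 3 and 4, Arg1 without STC1OE library 1 (-0.0347, range to 0.41 over libraries left out) and Slc40a1 in libraries 1 and 2 (0.0270). The cause was not tested. With the replicate number as a block, 3548 genes were higher and 3752 lower than alone, and 4.13% and 2.51% of the 16406 than with control corpses. Libraries with the same number had correlations of their deviations from the group means of 0.114, -0.155, -0.0607 and -0.280 between macrophages alone and STC1OE corpses and of 0.0907, 0.236, 0.0774 and 0.190 between control and STC1OE corpses. Between control and STC1OE corpses all of these were above 0. STC1OE libraries 1, 2 and 4 correlated best with the control library of their own number, and STC1OE library 3 with control library 1 (0.152). The main fit used no pairing. These values do not settle whether libraries of the same number shared an experiment.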

Other observations

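Some families of protein-coding genes, grouped by the start of their symbols and with list members included, had shares of called genes unlike those of all genes. Of 224 solute carrier (Slc) genes tested, 96 were called higher and 43 lower with STC1OE corpses than in macrophages alone. RNA polymerase subunits (Polr) were higher in 13 of 28, with a median log2 fold change of 0.14. Genes whose symbols begin with Sec, many of them parts of the secretory pathway, were higher in 17 of 24 and lower in 3, with a median of 0.25. Mitochondrial ribosomal proteins (Mrpl) were higher in 19 of 48 and lower in 3. Of 331 zinc finger (Zfp) genes, 25 (7.55%) were higher and 84 (25.4%) lower, the latter near the share over all genes. Collagen genes (Col) were lower in 9 of 28. Over all genes tested, 21.4% were higher and 22.4% lower. Of the 12188 protein-coding genes tested, 3289 were higher and 3083 lower.

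Several genes that fell by 1.5-fold or more lie next to each other. On chromosome 9, from 123962124 to 124113557 (GRCm38), Ccr1, Ccr1l1, Ccr3 and Ccr2 were lower with STC1OE corpses. Of these Ccr1l1, at 0.864 ± 0.155 CPM alone and 0.534 ± 0.0769 CPM with corpses, was not called without library 4 of macrophages alone or without STC1OE library 1 or 2 (edgeR adjusted p of 0.116, 0.0841 and 0.0546). On chromosome 6, from 122921848 to 123143999, the lectin genes Clec4a1, Clec4a3, Clec4b1 and Clec4a2 were lower. On chromosome 11, from 109932190 to 110251776, the transporter genes Abca8b, Abca9 and Abca6 were lower, and from 82035571 to 82103400 Ccl2, Ccl7 and Ccl12 were higher. On chromosome 17, from 34257689 to 34316674, H2-Ab1, H2-Aa and H2-Eb1 were lower. Relatives in such clusters could share reads.

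Falls of 1.5-fold or more made up 5.09% of 12188 protein-coding genes tested, 11.6% of 466 lincRNAs and 13.5% of 252 processed transcripts. Median levels in macrophages alone were 20.2 CPM for protein-coding genes, 0.941 CPM for lincRNAs and 1.16 CPM for processed transcripts, and the part of this gap in the shares was not tested. Strand use in counting is not stated, so reads of overlapping genes may not be told apart.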
